A study of Mus musculus with 16 samples.

Results

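The genes described are 4 effector transcripts of allergic lung inflammation, Chil4, Arg1, Rnase2a and AA467197, out of 9866 genes named on the arrays and 7276 genes tested. They were picked by symbol from results of these same arrays, as genes high in the ovalbumin-exposed BALB/c lung, so their values in that contrast are given as a description with no test. Whole lungs of mice exposed to ovalbumin (OVA) or to phosphate-buffered saline (PBS) were taken at day 22, 1 day after the last exposure, and 6 µg of total RNA was labelled for Affymetrix arrays. The 16 arrays fall into 4 groups of 4: BALB/c after PBS, BALB/c after OVA, BALB-RAG after PBS and BALB-RAG after OVA. Age, sex, dose, route and the number of lungs per array are not given in the sources used here, nor is the allele behind the name BALB-RAG. Mice without a recombination-activating gene form no mature T or B cells.

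The label BALB-RAG did not sit evenly with the lymphocyte transcripts, so the arrays are called by their labels. The summed intensity of 13 T cell markers was 266 to 346 on the 4 arrays labelled BALB-RAG PBS, against 252 to 339 after PBS in BALB/c. The sum of 12 B and plasma cell markers was 2885 to 5121 against 3359 to 5127. Among arrays labelled BALB-RAG OVA, replicate 2 read 550 for the T cell sum and 6974 for the B and plasma cell sum, while the other 3 arrays read 155 to 183 and 2079 to 2567. OVA minus PBS of the members in BALB-RAG is given below with and without that replicate, as are the list genes whose call rests on it. The members' comparison of lines after OVA and the difference in response of Chil4 are given only with it. OVA minus PBS in BALB-RAG, every difference in response between the lines and the comparison of lines after PBS all rest on the 4 BALB-RAG PBS arrays. None of these has a version without those 4 arrays.

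Chil4 (also called Chi3l4 or Ym2) encodes a chitinase-like protein that binds sugars but does not cut chitin. Arg1 encodes arginase 1, which turns arginine into ornithine and urea and is a classical marker of macrophages activated by interleukin 4 and interleukin 13 through STAT6. Rnase2a, also called Ear11, encodes an eosinophil-associated ribonuclease of the ribonuclease A family, made by eosinophils and by activated macrophages. AA467197 is the mouse gene for a small protein of the NDUFA4 family, also known as NMES1, that can take the place of NDUFA4 at cytochrome c oxidase in inflamed cells, and its transcript carries a microRNA. Whole-lung RNA mixes all cell types, so that more or fewer cells of a type and more or less RNA per cell cannot be told apart.

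The 300-base windows around the annotated starts (250 bases before to 50 after) are shown for the 3 members that the RefSeq promoter table holds and for Chil3, the neighbouring near-copy of Chil4, because the members were high on the same arrays and to show how alike the pair of near-copies is. The sequences are RefSeq's, from GRCm38.p6. Capitals mark matches on either strand to TTCNNNGAA, a general STAT core, to GAGGAA, the core of the PU.1 site, or to TATAAA.
Chil4 (chr3:106219430-106219729, minus strand): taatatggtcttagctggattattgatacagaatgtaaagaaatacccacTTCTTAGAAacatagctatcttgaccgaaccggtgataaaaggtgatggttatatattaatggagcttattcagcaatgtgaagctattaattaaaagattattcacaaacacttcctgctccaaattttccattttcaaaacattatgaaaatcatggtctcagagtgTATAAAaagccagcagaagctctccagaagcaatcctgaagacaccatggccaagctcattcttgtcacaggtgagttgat
Chil3 (chr3:106167515-106167814, minus strand): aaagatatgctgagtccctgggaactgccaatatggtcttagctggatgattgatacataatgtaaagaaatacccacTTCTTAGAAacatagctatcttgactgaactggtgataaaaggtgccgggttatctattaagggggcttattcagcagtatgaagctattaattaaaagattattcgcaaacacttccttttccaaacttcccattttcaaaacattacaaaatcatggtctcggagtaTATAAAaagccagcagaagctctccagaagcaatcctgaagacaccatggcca
Rnase2a (chr14:51256063-51256362, minus strand): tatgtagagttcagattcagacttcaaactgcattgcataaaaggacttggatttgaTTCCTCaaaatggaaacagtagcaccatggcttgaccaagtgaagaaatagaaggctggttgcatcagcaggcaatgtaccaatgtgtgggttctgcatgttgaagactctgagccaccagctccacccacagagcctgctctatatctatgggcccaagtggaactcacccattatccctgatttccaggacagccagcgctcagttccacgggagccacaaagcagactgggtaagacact
AA467197 (chr2:122637637-122637936, plus strand): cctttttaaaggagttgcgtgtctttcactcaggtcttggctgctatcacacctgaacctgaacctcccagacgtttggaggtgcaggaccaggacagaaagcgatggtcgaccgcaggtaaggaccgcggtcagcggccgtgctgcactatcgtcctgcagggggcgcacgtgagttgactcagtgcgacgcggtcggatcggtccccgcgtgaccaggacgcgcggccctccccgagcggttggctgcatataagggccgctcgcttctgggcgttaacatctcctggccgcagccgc

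The spaced core TTCNNNNGAA, preferred by STAT6, was in none of the 4 windows and in 6.95% of the 32851 windows in the table. In Chil4 the word TTCTTAGAA began at -200 from the start and TATAAA at -31. Chil3 held the same words at -172 and -3 from its own annotated start. Over 271 aligned bases 251 were identical between Chil4 and Chil3, or 92.6%. Rnase2a held a single PU.1 core, read on the minus strand as TTCCTC at -193, and AA467197 held none of the words searched. TTCNNNGAA was in 8.30% of all windows, GAGGAA in 28.3% and TATAAA in 13.6%. These words do not overlap one another in the windows shown, and a match is a description of the letters.

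The AA467197 gene span also holds mmu-miR-147-5p on the plus strand (GRCm38.p6, chr2:122640814-122640837), the only mature form of this microRNA in the reference used here. It is given because it lies within a member, with its seed, bases 2 to 8, in capitals. The seed shown is that of the 5p form alone.
mmu-miR-147-5p: uGGAAACAuuucugcacaaacuag
The arrays gave no value for the microRNA itself.

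Levels below are log2 of the deposited GCRMA intensity, on which 1 unit is a doubling, and log2 4 was taken as background. Chil4 read 5.37, 4.51, 4.68 and 5.29 on the 4 BALB/c PBS arrays (mean 4.96 ± 0.43, SD, n = 4) and 11.83, 12.42, 11.56 and 12.19 on the BALB/c OVA arrays (12.00 ± 0.38). It was the only one of the members above background on all 16 arrays. In BALB-RAG it read 5.05, 4.61, 4.73 and 5.48 with PBS (4.96 ± 0.39) and 4.53, 4.92, 5.11 and 4.65 after OVA (4.80 ± 0.26). The 4 BALB/c OVA arrays thus stood apart from the other 12, which overlapped each other.

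Arg1 read 2.26, 2.23, 2.56 and 2.47 in BALB/c after PBS (2.38 ± 0.16) and 9.14, 9.83, 7.96 and 6.83 after OVA (8.44 ± 1.32). It read 2.37, 2.96, 2.51 and 2.50 on the BALB-RAG PBS arrays (2.59 ± 0.26) and 2.92, 2.51, 2.34 and 2.94 on the BALB-RAG OVA arrays (2.68 ± 0.30). All 12 arrays outside BALB/c OVA were under background, so only a bound on its level is known there.

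Rnase2a read 3.14, 3.55, 3.80 and 3.64 in BALB/c after PBS (3.53 ± 0.28) and 10.76, 11.59, 9.98 and 9.59 after OVA (10.48 ± 0.89). In BALB-RAG it read 3.91, 3.84, 3.80 and 3.17 with PBS (3.68 ± 0.34) and 3.11, 5.30, 3.73 and 3.85 after OVA (4.00 ± 0.93). The value of 5.30 belongs to replicate 2, the BALB-RAG OVA array with the high lymphocyte sums, and it was the only array outside BALB/c OVA above background for this gene.

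AA467197 read 3.47, 4.31, 2.84 and 2.63 in BALB/c after PBS (3.31 ± 0.75) and 9.81, 9.84, 8.53 and 8.06 after OVA (9.06 ± 0.91). It read 3.04, 2.66, 2.65 and 2.56 on the BALB-RAG PBS arrays (2.73 ± 0.21) and 2.47, 2.60, 2.93 and 2.60 on the BALB-RAG OVA arrays (2.65 ± 0.20). A single array outside BALB/c OVA, BALB/c PBS replicate 2, lay above background.

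**Figure D1:**
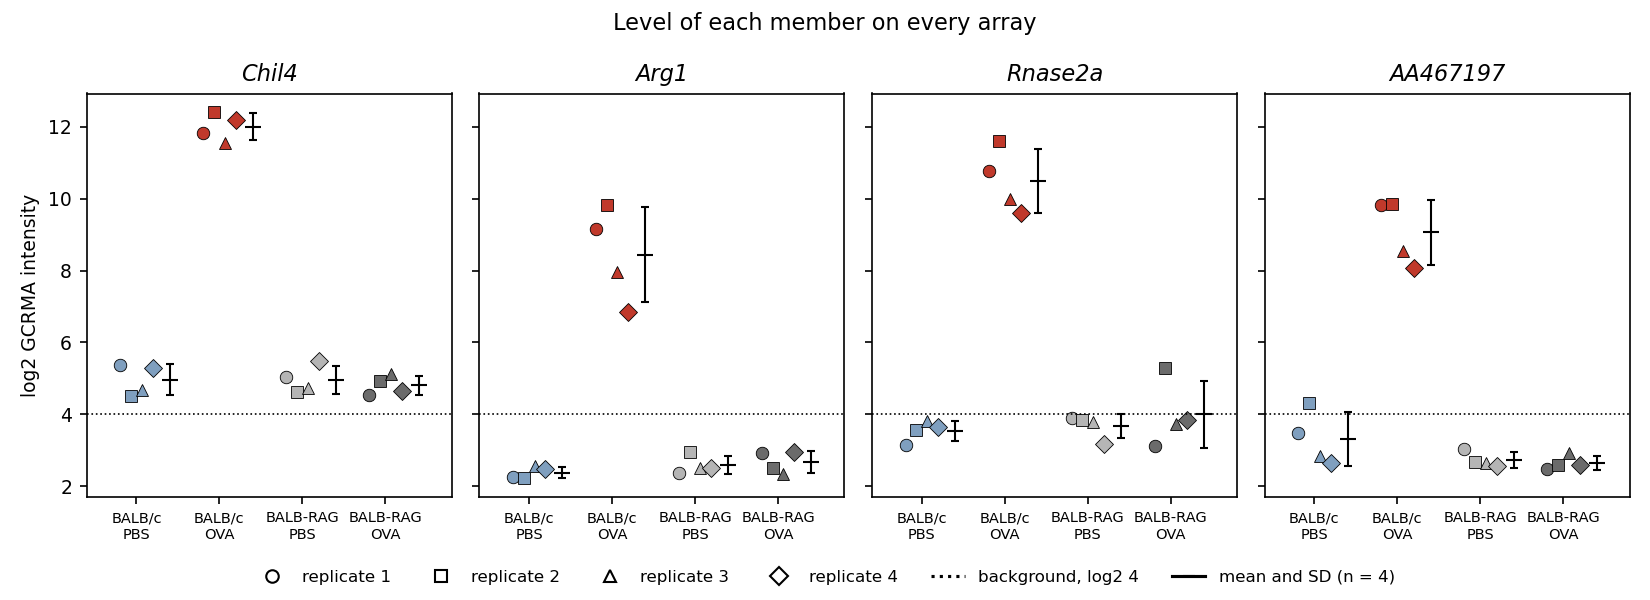
Log2 GCRMA intensity of the 4 genes on each of the 16 arrays, with 1 panel per gene, replicate number by marker shape, and mean and SD (n = 4) beside each group; the dotted line is background at log2 4. The BALB/c OVA arrays lie between 6.83 and 12.42 in all panels, and every other array lies at or below 5.48.

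The first comparison asks what the allergen did in BALB/c lung. All 4 members were higher on every BALB/c OVA array than on every BALB/c PBS array; 10.4% of the 7276 tested genes did the same, and since the members were chosen on this contrast nothing is read from their count. The difference was 7.03 ± 0.25 (log2, SE) for Chil4, a 131-fold higher intensity. For the other 3 members only a bound can be given, since 4 of 4 BALB/c PBS arrays for Arg1 and Rnase2a and 3 of 4 for AA467197 were under background. With values under log2 4 set to 4, the intensity was at least 89.4-fold higher for Rnase2a, at least 21.7-fold for Arg1 and at least 31.7-fold for AA467197, or 6.48, 4.44 and 4.99 on the log2 scale. The values as read differed by 6.95 ± 0.43, 6.06 ± 0.44 and 5.75 ± 0.39, and their lower ends carry no measured level. Arg1, Rnase2a and AA467197 passed the filter on dim genes (over log2 4 on at least 4 arrays) only through the BALB/c OVA arrays.

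The 4 members varied unequally among the BALB/c OVA lungs. From the lowest to the highest array the intensity spanned 1.81-fold for Chil4, 3.45-fold for AA467197, 4.01-fold for Rnase2a and 7.96-fold for Arg1. Replicates 1 and 2 were above replicates 3 and 4 for Arg1, Rnase2a and AA467197, by 2.09, 1.39 and 1.53 on the log2 scale, or 4.25, 2.63 and 2.89-fold. For Chil4 that gap was 0.25 (1.19-fold), and replicate 4 lay above replicate 1. The same split by replicate number ran through the whole data set: over 48 pairs of arrays from different groups, deviations from the group means correlated with a median of 0.308 when both arrays were of replicates 1 and 2 or both of 3 and 4, and over 48 other pairs with a median of -0.316. The OVA difference of Chil4 was 7.18 in replicates 1 and 2 and 6.89 in replicates 3 and 4. With values under background set to log2 4, it was at least 5.48 and 3.40 for Arg1, 7.18 and 5.79 for Rnase2a, and 5.68 and 4.30 for AA467197. What the split stands for is not given in the labels, and its part in these spreads was not tested.

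Of 9 named eosinophil markers, 2 were above background on replicates 1 and 2 alone, and the others did not share one pattern. Prg2, the eosinophil granule major basic protein, read 6.20 and 6.84 on BALB/c OVA replicates 1 and 2 and 2.98 and 2.89 on replicates 3 and 4. Ccr3, the eotaxin receptor, read 5.49, 5.25, 2.53 and 2.30 on the same arrays. Both were under background on the other 14 arrays, and both failed the filter and were not tested. They were singled out after their values were seen. Siglecf, a lectin of eosinophils and alveolar macrophages, read 7.88, 8.46, 6.90 and 6.37 after OVA in BALB/c and 7.06, 6.79, 6.32 and 6.89 after PBS, and it did not pass the test (0.64 ± 0.34, adjusted p = 0.246).

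The eosinophil list as a whole held 18 genes, of which 9 were named and 5 tested. In BALB/c, 1 of these 5 rose with OVA, against 8.73% of all tested genes. It was Csf2rb (1.56 ± 0.29, adjusted p = 0.00165), the shared receptor chain of interleukin 3, interleukin 5 and GM-CSF, which other myeloid cells carry too. On the BALB-RAG arrays Csf2rb read 5.04 to 6.59 with PBS and 6.65 to 7.22 with OVA, without overlap, and did not pass. Without BALB-RAG OVA replicate 2 the difference there was 1.25 ± 0.32 (adjusted p = 0.147). Its difference in response between the lines did not pass. Il5ra, the interleukin 5 receptor, read 4.22, 4.18, 4.78 and 4.21 after OVA in BALB/c, highest on replicate 3, and was under background on all 4 PBS arrays (adjusted p = 0.109). Adgre4, which macrophages also carry, read 5.66, 5.39, 5.08 and 5.32 with OVA against 5.34, 5.17, 3.69 and 4.68 with PBS (adjusted p = 0.465). Ltc4s, leukotriene C4 synthase, read 3.57, 3.65, 2.32 and 3.14 with OVA against 5.17, 4.74, 3.15 and 2.41 with PBS (adjusted p = 0.506), so that replicates 1 and 2 were higher with PBS as well. Hrh4 and Ptgdr2 were under background on all 16 arrays. The summed intensity of the 9 genes was 193 to 315 in BALB/c after PBS and 684, 893, 388 and 333 after OVA. It was 168 to 290 on the BALB-RAG PBS arrays and 243 to 323 on the BALB-RAG OVA arrays. On BALB/c OVA replicates 3 and 4, where Prg2 and Ccr3 were under background and the sum was 388 and 333, Rnase2a read 9.98 and 9.59. The part of eosinophils in its level was not tested.

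Macrophage markers rose too, though not all of them. Of 14 named genes of that list 13 were tested in BALB/c, 9 rose and 0 fell, among them C1qb (3.53 ± 0.38) and C1qa (2.99 ± 0.38), subunits of complement C1q, Itgax (2.91 ± 0.30), the integrin CD11c, and Csf1r (1.17 ± 0.19), the receptor for macrophage growth factors. In comparison, 8.73% of all tested genes were higher and 6.78% lower in this contrast. The summed intensity of the 14 genes was 16293 to 22880 after PBS and 21600 to 29889 after OVA. These ranges overlapped. Set side by side by replicate number, which the labels do not give as a pairing, the sum was higher after OVA in 4 of 4. The same held for other lists, among them neutrophils, whose sums overlapped too (829 to 7654 and 6122 to 7896). It also held for the cytochrome c oxidase list, in which 0 genes passed. Endothelium was lower in 4 of 4. Nothing is read from this ordering. Goblet cell markers moved with the members as well: their sum was 234 to 442 in BALB/c after PBS and 12183 to 16338 after OVA, with 7 of 8 tested genes higher. The T cell sum went from 252 to 339 after PBS to 494 to 1325 after OVA, with 8 of 13 tested genes higher. Outside BALB/c OVA, Itln1 of the goblet list was under background on 12 of 12 arrays and Slc26a4 on 11 of 12. Icos and Ctla4 of the T cell list were under background on 12 of 12. These genes passed the filter on dim genes only through the BALB/c OVA arrays, so such counts lean towards a rise. The B and plasma cell sum was 3359 to 5127 after PBS and 7468 to 27435 after OVA, with 5 of 11 tested genes higher. Endothelial markers moved the other way: their sum was 12937 to 13898 after PBS and 6585 to 10879 after OVA, with 4 of 9 tested genes lower and 0 higher. Of the 10 neutrophil genes named, 7 were tested and 1 rose, Lcn2 (3.37 ± 0.44), which epithelium also makes. On the BALB-RAG arrays Lcn2 read 8.54 to 10.43 with PBS and 11.10 to 12.03 with OVA, without overlap. Neither that difference nor the difference in response between the lines passed. For mast cells and basophils Mcpt1, Mcpt4, Ms4a2 and Fcer1a were under background on all arrays, and Kit was the only gene tested (-0.71 ± 0.30, adjusted p = 0.132). The part of any of these cell types in the members' differences was not tested.

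**Figure D2:**
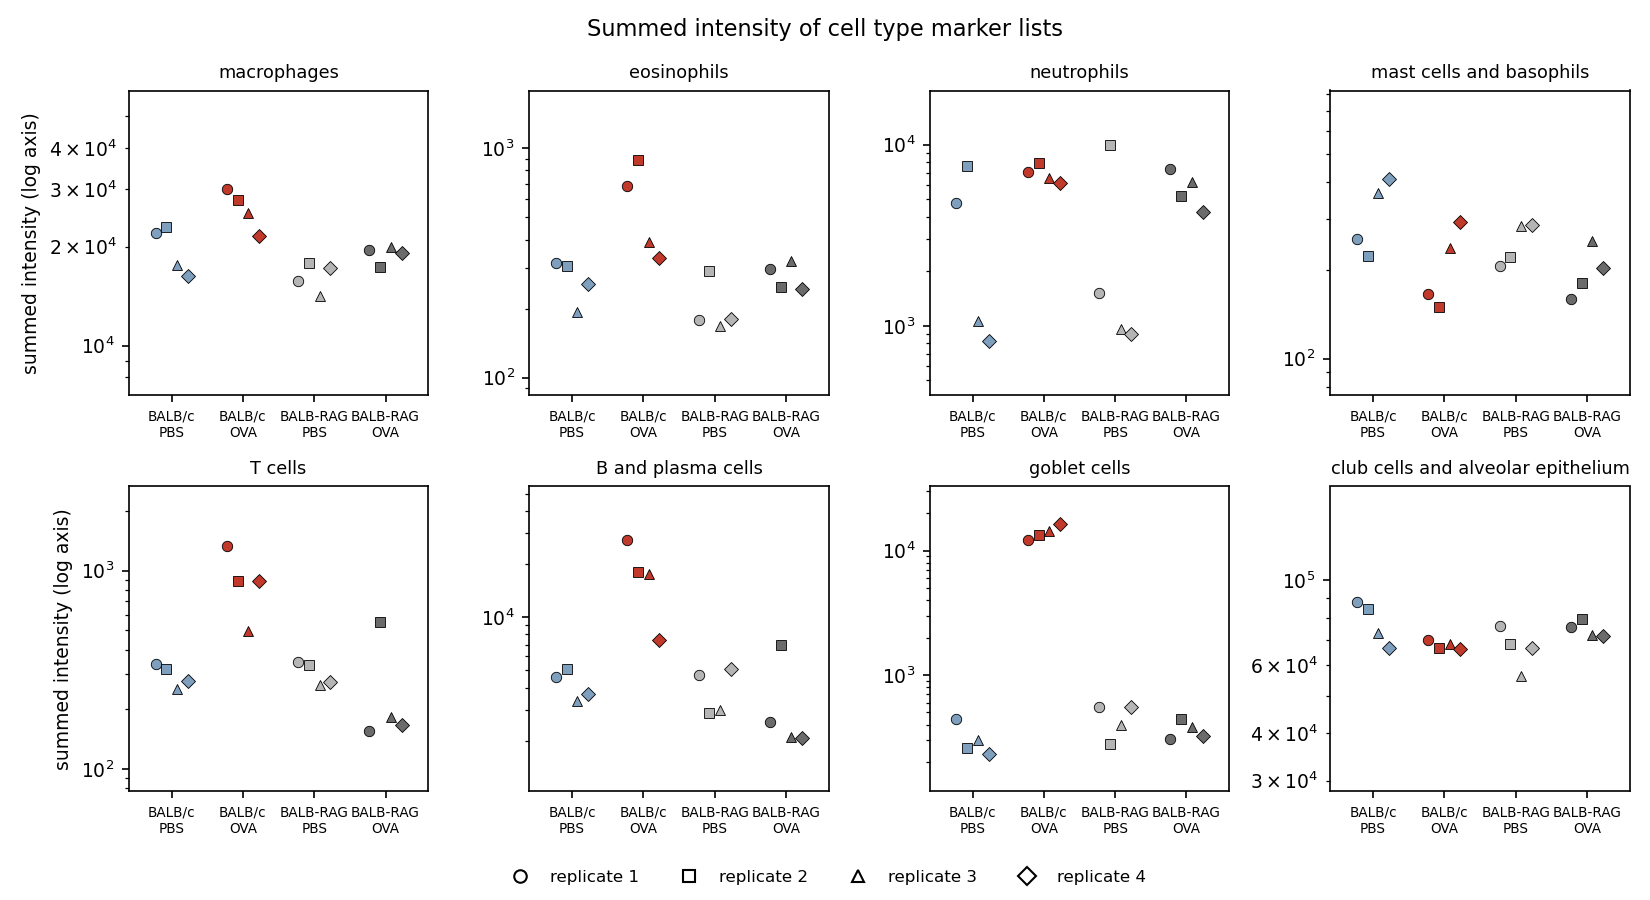
Summed GCRMA intensity of 8 cell type marker lists on each array (log axis), by group and with replicate number by marker shape. In the eosinophil panel BALB/c OVA replicates 1 and 2 stand at 684 and 893 against 388 and 333 for replicates 3 and 4, and in the T cell panel BALB-RAG OVA replicate 2 stands at 550 above the other 3 arrays of its group.

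The second comparison asks whether the same exposure moved the members on the arrays labelled BALB-RAG, which the choice of members did not use. None of the 4 passed the test (limma over all 7276 genes with Benjamini-Hochberg adjustment, adjusted p under 0.05), none had an unadjusted p under 0.05, and the OVA and PBS arrays overlapped for each. Of all tested genes 0.165% passed, 2.67% were higher and 1.95% lower without overlap. That is 12 genes, and without BALB-RAG OVA replicate 2 it was 42. Chil4 differed by -0.16 ± 0.25, with a 95% interval of -0.69 to 0.36 and an adjusted p of 0.984. For Arg1 the difference was 0.09 ± 0.44 (-0.85 to 1.03, adjusted p = 0.999) and for AA467197 -0.08 ± 0.39 (-0.90 to 0.75, adjusted p = 0.999). Rnase2a differed by 0.32 ± 0.43 (-0.60 to 1.24, adjusted p = 0.972). Without BALB-RAG OVA replicate 2 its value was -0.11 (adjusted p = 0.981), and those of Chil4, Arg1 and AA467197 were -0.20, 0.15 and -0.06. These values are informative for Chil4, which was above background on all 8 BALB-RAG arrays. Arg1 and AA467197 were under background on 8 of 8 and Rnase2a on 7 of 8, and these 3 entered the test only through the BALB/c OVA arrays, so a difference under background would not be seen.

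The third comparison asks whether the lines differed after PBS, in lungs also taken at day 22. After PBS none of the 4 members passed the test, with none at an unadjusted p under 0.05, and the lines overlapped for each. Arg1 and Rnase2a were under background on 8 of the 8 PBS arrays and AA467197 on 7 of 8. These 3 entered the test only through the BALB/c OVA arrays, and for them it says nothing of levels under background. Of all tested genes 3.90% passed, 4.21% were higher and 5.44% lower in BALB-RAG without overlap. BALB-RAG minus BALB/c was 6.35e-05 ± 0.25 for Chil4 (-0.52 to 0.53, adjusted p = 1.00). It was 0.20 ± 0.44 for Arg1 (-0.73 to 1.14, adjusted p = 0.906) and 0.14 ± 0.43 for Rnase2a (-0.78 to 1.06, adjusted p = 0.943). For AA467197 the values as read differed by -0.58 ± 0.39 (-1.41 to 0.24, adjusted p = 0.534). Only BALB/c PBS replicate 2, at 4.31, was above background, so the size of that gap is not known. As read, it was -1.04 among replicates 1 and 2 (adjusted p = 0.0881) and -0.13 among replicates 3 and 4 (adjusted p = 0.879).

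OVA minus PBS of Chil4 in BALB/c exceeded that in BALB-RAG by 7.20 ± 0.35. For the other 3 members no such difference is given, since 12 of the 12 arrays outside BALB/c OVA were under background for Arg1 and 11 of 12 for Rnase2a and AA467197. After OVA, Chil4 was 147-fold higher in BALB/c than on the BALB-RAG arrays. With values under background set to log2 4, Rnase2a was at least 71.4-fold, AA467197 at least 33.4-fold and Arg1 at least 21.7-fold higher. All of these include BALB-RAG OVA replicate 2, on which Rnase2a read 5.30. These differences use the BALB/c OVA arrays by which the members were chosen, so no test is given. They also share arrays with the comparisons above.

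Relatives and partners of the members follow, by role, from lists that hold no member and were drawn up with earlier results of these arrays known. Across 6 such lists 24 different genes passed the test in BALB/c with OVA, against a background of 15.5% of all tested genes. Of the genes tested, 11 of 15 rose on the macrophage activation list, 2 of 4 chitinase genes and 3 of 19 arginine genes. For ribonucleases 1 of 3 rose and 1 fell, and 0 of 17 cytochrome c oxidase genes and 7 of 16 type 2 cytokine genes rose. Irf4 and Trem2 passed the filter on dim genes only through the BALB/c OVA arrays, so the count leans towards a rise. On the BALB-RAG arrays 0 passed by limma, against 0.165% of all tested genes. There, at an unadjusted p under 0.05, 5 of 15 macrophage activation genes, 2 of 4 chitinase genes, 5 of 19 arginine genes, 1 of 3 ribonuclease genes, 1 of 17 cytochrome c oxidase genes and 2 of 16 type 2 cytokine genes were found, against 7.72% of all tested genes. Without BALB-RAG OVA replicate 2, Chil3 and Gatm passed there, and the unadjusted counts were 3, 2, 4, 0, 1 and 3 in the same order, against 8.05% of all tested genes.

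Chil4 lies in a cluster of chitinase genes on chromosome 3. Of the 9 genes on the chitinase list 5 were named and 4 tested, and 2 rose in BALB/c, against 8.73% of all tested genes. The median difference was 0.87, against 2.18e-05 over all tested genes. Chia1, acidic mammalian chitinase, which does cut chitin, read 9.40, 9.46, 8.72 and 8.55 with PBS and 11.84, 11.80, 11.65 and 11.62 with OVA (2.70 ± 0.26, adjusted p = 5.98e-06). On the BALB-RAG arrays it read 10.86, 9.67, 9.88 and 10.65 with PBS and 9.26, 9.59, 9.66 and 9.21 with OVA. That difference was in the opposite direction and did not pass (-0.83 ± 0.26, adjusted p = 0.309), although the arrays did not overlap. Without BALB-RAG OVA replicate 2 it was -0.89 ± 0.29 and did not pass either (adjusted p = 0.332). The differences of the 2 lines were 3.53 ± 0.37 apart (adjusted p = 2.90e-05), and 3.59 ± 0.39 without BALB-RAG OVA replicate 2. After PBS Chia1 was higher on the BALB-RAG arrays by 1.23 ± 0.26 (adjusted p = 0.0139).

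Chil3, also called Ym1, is the product of macrophages most often used to mark alternative activation. It read 12.39, 12.54, 11.97 and 11.77 on the BALB/c PBS arrays and 13.54, 13.88, 13.69 and 13.56 on the BALB/c OVA arrays (1.50 ± 0.18, adjusted p = 4.51e-05). On the BALB-RAG arrays it read 11.94, 12.27, 11.94 and 12.29 with PBS and 12.90, 12.59, 13.09 and 13.07 after OVA, a difference of 0.80 ± 0.18 that did not pass (adjusted p = 0.0839). Without replicate 2, the lowest of these OVA arrays, the difference was 0.91 ± 0.18 and passed (adjusted p = 0.0392). The responses of the lines were 0.69 ± 0.25 apart with all arrays (adjusted p = 0.104) and 0.59 ± 0.25 without that replicate (adjusted p = 0.180). Chil3 and Chil4 are near-identical copies, so a probe set of one may read RNA of the other. On the BALB-RAG OVA arrays, where Chil3 read 12.59 to 13.09, Chil4 stayed at 4.53 to 5.11, so its probe set read little Chil3 RNA there. Whether the Chil3 probe set reads Chil4 RNA, and so part of the Chil3 rise in BALB/c, was not tested. Chid1 (0.25 ± 0.29) and Ctbs (0.03 ± 0.20) did not pass.

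Among the 10 protein-coding genes nearest to Chil4, 5 on each side, 4 were tested; Chia1 and Chil3 rose, and Cept1 (0.13 ± 0.12) and Dram2 (-0.05 ± 0.13) did not pass.

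Arginase 1 competes with nitric oxide synthase for arginine and feeds ornithine to polyamine and proline synthesis. Of 34 genes on the arginine and polyamine list 25 were named and 19 tested, and 3 rose in BALB/c, with a median difference of 0.07. Over all tested genes 15.5% passed in this contrast, 8.73% higher and 6.78% lower, so nothing is read from that count. Gatm, glycine amidinotransferase, which uses arginine for creatine synthesis, read 3.70, 3.62, 3.90 and 4.06 with PBS and 8.42, 8.36, 8.31 and 7.95 with OVA (4.44 ± 0.26, adjusted p = 4.53e-08). Of the PBS values 3 of 4 were under background. On the BALB-RAG arrays it read 5.03, 5.30, 4.90 and 5.42 with PBS and 6.23, 4.85, 6.19 and 6.35 with OVA, a difference of 0.74 ± 0.26 that did not pass (adjusted p = 0.405). Without replicate 2, the array at 4.85, it was 1.09 ± 0.16 and passed (adjusted p = 0.00514). Its response was larger in BALB/c than in BALB-RAG by 3.70 ± 0.37 (adjusted p = 2.15e-05), and by 3.35 ± 0.22 without that replicate. After PBS it was higher on the BALB-RAG arrays by 1.35 ± 0.26 (adjusted p = 0.0102). Slc7a2, the cationic amino acid transporter that brings arginine into macrophages, rose by 1.94 ± 0.31 (adjusted p = 0.000592). Sat1, the enzyme that acetylates spermidine and spermine, rose by 0.73 ± 0.13 (adjusted p = 0.00112). With the replicate number as a block 5 genes of this list passed, against 1764 of all 7276 tested genes. After PBS, Azin1, an inhibitor of the ornithine decarboxylase antizyme, was lower on the BALB-RAG arrays by -0.76 ± 0.15 (adjusted p = 0.0111) and Sat1 by -0.51 ± 0.13 (adjusted p = 0.0366). Of the 3 tested neighbours of Arg1 on chromosome 10, Akap7 fell (-0.48 ± 0.15, adjusted p = 0.0423), and Ccn2 (-0.25 ± 0.18) and Tmem200a (-0.21 ± 0.24) did not pass.

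The ribonuclease A family was thinly covered, with 4 of 18 genes named and 3 tested. In BALB/c Ear3, an eosinophil-associated ribonuclease, read 8.20, 8.13, 7.14 and 7.12 with PBS and 9.16, 9.79, 8.49 and 8.31 with OVA (1.29 ± 0.35, adjusted p = 0.0205). The genes for these ribonucleases are close copies, so that Ear3 and Rnase2a probe sets may read relatives, and both values are uncertain in that respect. Rnase4 fell, from 12.31, 12.33, 12.24 and 12.20 to 11.51, 11.46, 11.95 and 11.70 (-0.61 ± 0.19, adjusted p = 0.0432), and its responses in the lines differed by -0.96 ± 0.27 (adjusted p = 0.0413), and by -1.04 ± 0.29 without BALB-RAG OVA replicate 2 (adjusted p = 0.0377). Ang2, next but one to Rnase2a on chromosome 14 and the only tested neighbour, did not pass (0.03 ± 0.36), and Rnase1 was under background on all arrays. These calls are fragile: 0 of the 3 genes passed without BALB/c OVA replicate 1 or 2, or without BALB/c PBS replicate 3 or 4.

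For AA467197 the list holds the subunits of cytochrome c oxidase and the NDUFA4 proteins. Of 17 genes tested 0 passed in BALB/c by limma and 1 had an unadjusted p under 0.05, against 15.5% and 27.5% of all tested genes. The median difference was 0.10. Cox4i2, a subunit isoform of lung, differed by -0.42 ± 0.18 (adjusted p = 0.142). Ndufa4l2, a relative of AA467197, differed by -0.70 ± 0.36 (adjusted p = 0.222), Cox5a by 0.52 ± 0.30 (adjusted p = 0.282) and Cox6b2 by -0.68 ± 0.40 (adjusted p = 0.305). With the replicate number as a block 7 of the 17 passed, against 1764 of all 7276 tested genes. With each array centred on its median 1 passed, and in replicates 1 and 2 alone 3 passed. Gatm is also 2 genes from AA467197 on chromosome 2 and rose as given above. The other tested neighbours did not pass, namely Slc30a4 (0.16 ± 0.16), Bloc1s6 (0.40 ± 0.14, adjusted p = 0.061) and Sqor (-0.16 ± 0.15).

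The list for alternatively activated macrophages had 24 genes, 16 named and 15 tested. In BALB/c 11 rose and 0 fell, against 8.73% and 6.78% of all tested genes, with a median difference of 1.47. Ccl8, a chemokine of such macrophages, read 4.65, 4.33, 4.11 and 4.57 with PBS and 11.33, 11.63, 10.33 and 10.15 with OVA (6.44 ± 0.41, adjusted p = 6.95e-08). Clec7a, the glucan receptor dectin 1, rose by 3.02 ± 0.25 (adjusted p = 1.93e-06). Irf4, a transcription factor of the interleukin 4 response, rose by 2.29 ± 0.20 (adjusted p = 2.14e-06). For 6 of the 15 genes, against 8.49% of all tested genes, the responses of the lines differed, all larger in BALB/c: Ccl8 (6.07 ± 0.58, adjusted p = 1.38e-05), Clec7a (2.56 ± 0.36), Irf4 (2.60 ± 0.28), the matrix protein Fn1 (1.44 ± 0.21), the lipid receptor Trem2 and the chemokine Ccl22 (1.55 ± 0.40). Trem2 and Irf4 were under background on 11 and 10 of the 12 arrays outside BALB/c OVA, so that the size of their differences is uncertain. Both passed the filter on dim genes only through the BALB/c OVA arrays. Without BALB-RAG OVA replicate 2 all 6 still passed. After PBS 4 of the 15 genes separated the lines, against 3.90% of all tested genes. Fn1 was higher in BALB-RAG by 1.01 ± 0.15, and Ccl17 (-1.73 ± 0.42), Egr2 (-1.37 ± 0.34) and Socs2 (-0.51 ± 0.12) were lower.

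Upstream of the members, the type 2 cytokine list had 33 genes, 21 named and 16 tested. In BALB/c 7 rose and 0 fell, against 8.73% and 6.78% of all tested genes, with a median of 0.43. The alarmin Il33 rose by 1.30 ± 0.23 (adjusted p = 0.00114), from a mean of 9.21 ± 0.22 (SD, n = 4) to 10.50 ± 0.19. Jak3, the kinase of the common cytokine receptor chain, rose by 1.01 ± 0.19 (adjusted p = 0.00212), and Jak2 by 0.60 ± 0.12 (adjusted p = 0.00388). Crlf2, the receptor for the cytokine TSLP, rose by 0.99 ± 0.21 (adjusted p = 0.00467). The responses of the lines differed for Il33 (1.30 ± 0.32, adjusted p = 0.0209), Jak3 (0.97 ± 0.27, adjusted p = 0.0399) and Crlf2 (1.05 ± 0.30, adjusted p = 0.0416). Over all tested genes 8.49% passed that test. Without BALB-RAG OVA replicate 2, Il33 passed (adjusted p = 0.0126) and Jak3 (0.0584) and Crlf2 (0.0609) did not. Il13, Il25 and Il13ra2 were under background on all 16 arrays, so a change in them could not be seen.

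**Figure D3:**
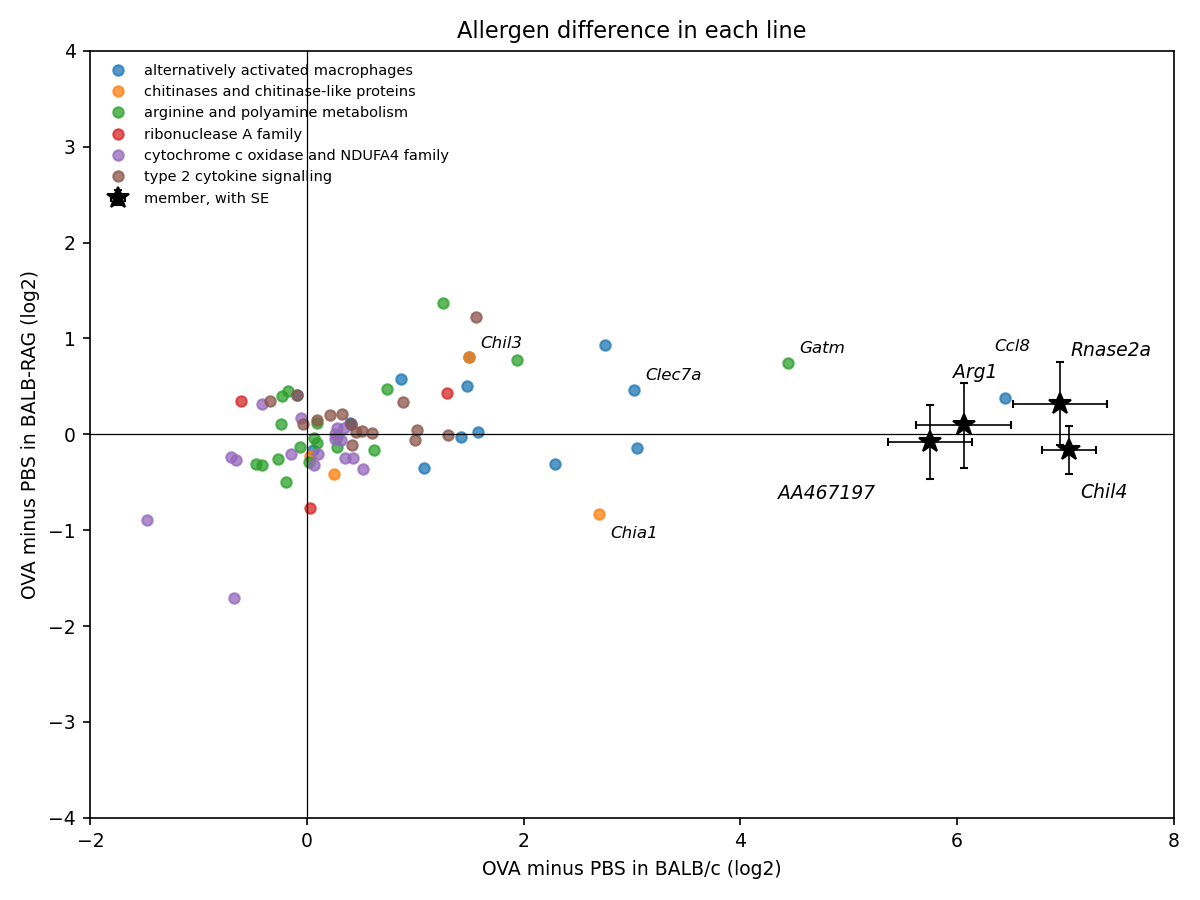
OVA minus PBS in BALB/c (horizontal, log2) against OVA minus PBS in BALB-RAG (vertical, log2) for the tested genes of the 6 pathway lists (circles) and the 4 members (stars, with SE). Values are plotted as read: the members lie between 5.75 and 7.03 on the horizontal axis, where those of Arg1, Rnase2a and AA467197 rest on PBS values under background, and between -0.16 and 0.32 on the vertical one.

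The genes whose pattern over the 16 arrays was most like each member were named by Pearson's r among tested genes that are no members. All such values share the one large step between BALB/c OVA and the other arrays and carry no test. Chil4 was most like Fcgbp (r = 0.994), a mucus protein of goblet cells, then Cd86 (0.978), a costimulatory molecule, and Slc26a4 (0.974), an anion exchanger of airway epithelium. On the BALB/c OVA arrays Fcgbp read 9.15, 9.88, 9.25 and 9.34, without the step between replicates 1 and 2 and replicates 3 and 4. Arg1 was most like Slamf8 (0.989), a receptor of myeloid cells, Ccl8 (0.978) and Fcgbp (0.975). Slamf8 read 8.59, 8.21, 7.11 and 5.92 on the BALB/c OVA arrays and, like Arg1, was lowest on replicate 4. Rnase2a was most like the chemokines Cxcl9 (0.988) and Ccl8 (0.987), and then Fcgbp (0.980). AA467197 was most like the chemokine Cxcl10 (0.982), Cd86 (0.981) and Slamf8 (0.979). Cxcl10 read 8.62, 7.84, 7.35 and 7.29 on these arrays, and Cxcl9 read 9.84, 9.11, 8.40 and 8.41. Between the members themselves r was 0.966 to 0.979.

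**Figure D4:**
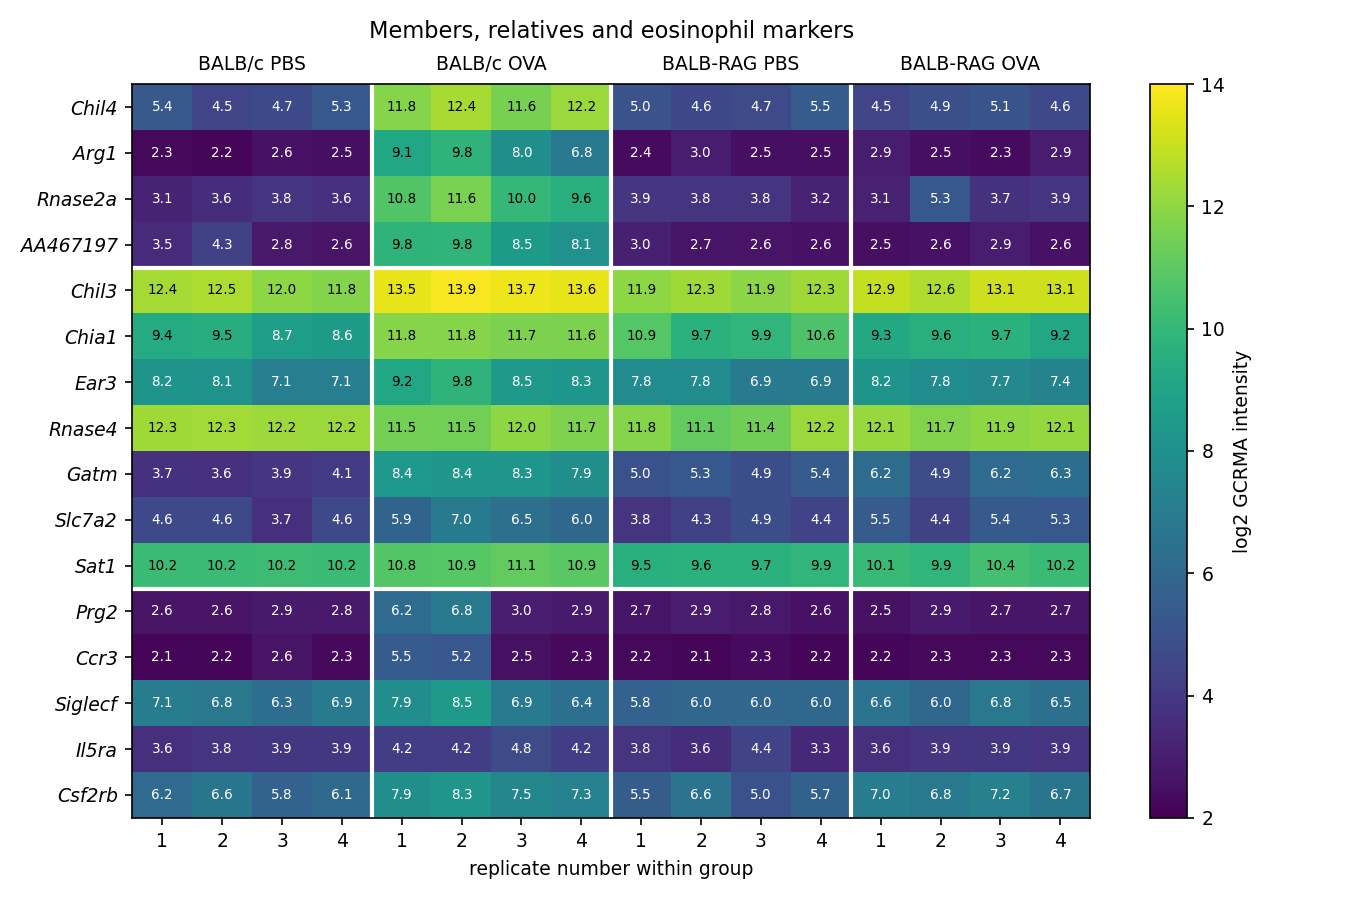
Log2 GCRMA intensity, printed in each cell, on the 16 arrays, in columns by group and replicate. Rows are the 4 members (top), relatives and arginine genes (middle) and 5 of the 9 named eosinophil markers (bottom). Adgre4, Ltc4s, Hrh4 and Ptgdr2 are not shown, and Ltc4s had a lower mean with OVA than with PBS in BALB/c. Prg2 and Ccr3 exceed log2 4 only on BALB/c OVA replicates 1 and 2, the arrays on which Arg1, Rnase2a and AA467197 are also highest.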

How the data were processed

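Whole-lung RNA was hybridised to 16 Affymetrix arrays, 4 per group. The deposited values are linear intensities, which the authors computed with GCRMA per the submitters' processing notes, and they ran from 2.32 to 35181, with array medians of 18.2 to 20.5. Precision is limited by the number of arrays, and since the labels do not say whether replicates are separate mice, their spread may be technical.

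In the deposited table many probe set labels stand against values of other probe sets. For 14300 of 45101 labels, values were taken 64 rows above (the first run of labels), 47 rows below (the second) or 16168 rows below (the third); the other 30801 labels were dropped. The median correlation of probe sets of one gene rose with this from 0.0950 to 0.671 (660 pairs), from 0.0778 to 0.604 (1162 pairs) and from 0.0741 to 0.601 (679 pairs). An earlier analysis of these data placed the second run 47 rows above, which gave 0.0266 (850 pairs). The members' probe sets were 1425450_at (Chil4), 1419549_at (Arg1), 1425295_at (Rnase2a) and 1434046_at (AA467197).

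A gene was represented, in log2, by its brightest probe set and tested where it exceeded log2 4 on at least 4 arrays. limma 3.58.1 (R 4.3.3) fitted 4 group means to all 16 arrays with empirical Bayes, and p-values were adjusted by Benjamini-Hochberg over the 7276 genes, with a threshold of 0.05. The fit was tested on simulated data. Members and lists were chosen with earlier results of these data known. The text names, besides the members, up to 4 genes per list with the smallest p in BALB/c, genes of counts of 5 or fewer, and the 3 genes most like each member; further genes of counts and markers at background were named after their values were seen. In all 29 settings were run.

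Same-numbered arrays deviated together between BALB/c PBS and BALB/c OVA (correlations of 0.304 to 0.456) and between the PBS groups of the lines (0.320 to 0.349). Over the 48 pairs from different groups that lay both in replicates 1 and 2 or both in 3 and 4, the median was 0.308. These 48 pairs include the 24 same-numbered ones, and pairs of different numbers were not looked at alone. Pairing by number was thus not separated from that split, and the labels have no word of such pairing. Between BALB-RAG PBS and BALB-RAG OVA the correlation of replicate 2 was 0.0253, and the numbers were not taken as pairs.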

Additional observations from a re-analysis of the deposited data

Results flagged for a closer look

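Rnase2a on BALB-RAG PBS replicate 4 read 3.17, away from the other 3 arrays of its group at 3.80 to 3.91, a gap of 0.854 of the group's range. It was 1 of 16 groups of member values looked at in this way, and chance flags about 1 in 20. All 4 values are under background.

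The response to OVA differed between the lines for 6 genes of the list for alternatively activated macrophages, 1 of the chitinase list (Chia1), 1 of the arginine and polyamine list (Gatm), 1 of the ribonuclease A family (Rnase4) and 3 of the type 2 cytokine list (Il33, Jak3 and Crlf2), by the interaction term of the limma fit at an adjusted p under 0.05. Over all tested genes 8.49% passed that test. Without BALB-RAG OVA replicate 2 Jak3 and Crlf2 did not pass.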

How the results depend on the processing

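Over the alternatives that kept the realigned labels, 212 values of the 2 tested comparisons of members were at hand. None had an adjusted p under 0.05, and the smallest was 0.0881. Arg1, Rnase2a and AA467197 were under background on 7 or 8 of the 8 arrays of each comparison. Their part of this count could hardly have come out otherwise and says nothing of levels under background. With values under background set to log2 4, differences of exactly 0 were not counted. Small differences near 0 changed sign. After PBS, BALB-RAG minus BALB/c was -0.016 for Chil4 with each array centred on its median and -0.12 in replicates 1 and 2 alone. In replicates 3 and 4 alone it was -0.013 for Arg1 and -0.24 for Rnase2a. With OVA in BALB-RAG, AA467197 read 0.16 in replicates 3 and 4 alone. Leaving out 1 array at a time gave -0.17 to 0.14 for Chil4 after PBS, and with OVA in BALB-RAG -0.28 to 0.0082 for Chil4, -0.17 to 0.024 for AA467197 and -0.11 to 0.62 for Rnase2a.

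In BALB/c, on values as read, leaving out 1 array gave differences of 6.89 to 7.18 for Chil4, 5.60 to 6.60 for Arg1, 6.58 to 7.25 for Rnase2a and 5.49 to 6.09 for AA467197. With values under log2 4 set to 4, the difference for Arg1 was 4.44. With labels as deposited the differences were -0.23 for Chil4, 0.18 for Arg1, -0.39 for Rnase2a and -0.23 for AA467197. With the second run of labels moved 47 rows above, chosen after seeing the data, Chil4 read 0.16 and Rnase2a 0.063. After OVA, BALB-RAG minus BALB/c was then 0.036 for Chil4 and 0.65 for Rnase2a. As deposited it was 0.035 for Chil4, 0.14 for Arg1 and 0.73 for Rnase2a, and -0.033 for Rnase2a after PBS. As deposited, the responses of the lines differed by -0.11 for AA467197 and -0.77 for Rnase2a. Other probe sets' values stand at these labels then.

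The count over the 6 lists was 24, with 3 under labels as deposited, 13 with the second run moved above, and 18 to 34 under the other alternatives (19 to 25 with 1 array left out). With the replicate number as a block, 34 list genes passed, the adjusted p of the members' tested differences was 0.308 to 1.00, and no call of a member changed. Over all tested genes the block raised the calls from 1128 to 1764 in BALB/c, from 12 to 41 in BALB-RAG, from 284 to 609 after PBS and from 618 to 1152 for the difference in response. Values under background limit 3 of the members outside BALB/c OVA.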
